A study of Mus musculus with 5 samples.

Results

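Ube3c and Dnajb6 are neighbouring genes that lie beyond the homeobox gene Mnx1, on the far side of Lmbr1 from the Sonic hedgehog gene Shh, on mouse chromosome 5. Their chromatin contacts were read from 6 capture Hi-C maps of the Shh locus in E10.5 limb buds, made of 5 kb bins over chr5:27480001-30270000 (mm10). The Ube3c viewpoint was the gene (chr5:29569242-29676077) with 1 bin on either side, 25 bins in all, and the Dnajb6 viewpoint was the gene (chr5:29735898-29786478) with 1 bin on either side, 13 bins in all. Together they made 38 of the 548 bins kept. The viewpoints were never pooled, and their partners were all kept bins at least 20 kb away.

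Of the maps, 5 came from homozygous mutant embryos with 1 library each, named intraTAD2, intraTAD3, i4CTCF, 2xBorCTCF and 1xBorCTCF here. In the labels the last 3 names extend that of intraTAD2 (intraTAD2-i4CTCF, intraTAD2-2xBorCTCF and intraTAD2-1xBorCTCF). Embryos of intraTAD2, intraTAD3 and i4CTCF were bred by mating. Those of both BorCTCF genotypes were made by tetraploid aggregation, where embryonic stem cells build the embryo and the tetraploid host chiefly its extraembryonic tissue. The comparison map is the authors' wild-type map, which belongs to no labelled sample and whose embryos were not described in the sources used here. What each allele alters, and how many embryos were pooled, was not given there either. With 1 map per genotype there was no replicate and no test between genotypes, and every interval below is a 95% interval of counting error alone. Limb bud identity could not be checked against marker genes, since contact maps hold no expression.

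Ube3c encodes a HECT-type ubiquitin ligase that works with the proteasome, and Dnajb6 encodes a J-domain co-chaperone of heat shock protein 70 that holds back protein aggregation. Both are broadly expressed. Shh, the signal that patterns the limb from its posterior margin, is driven there by an enhancer in an intron of Lmbr1. Mammalian chromosomes fold into topologically associating domains, within which loci meet more often than across the borders. Borders often carry bound CTCF, which halts cohesin, and many also lie at active gene starts.

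The starts of both genes and that of Lmbr1, where a domain border lay in these maps, are shown as sequence because the contact patterns below change at these places. The promoter windows, 250 bases before to 50 bases after each gene start, are from RefSeq on GRCm38.p6, and both members matched by symbol. The Ube3c window is chr5:29568992-29569291 on the plus strand, the Dnajb6 window chr5:29735648-29735947 on the plus strand, and the Lmbr1 window chr5:29378341-29378640 on the minus strand. Capitals mark matches to the YY1 letters AAGATGG in Ube3c and to the ETS letters CCGGAAG in Dnajb6, in each case on the reverse strand of the printed sequence.
Ube3c: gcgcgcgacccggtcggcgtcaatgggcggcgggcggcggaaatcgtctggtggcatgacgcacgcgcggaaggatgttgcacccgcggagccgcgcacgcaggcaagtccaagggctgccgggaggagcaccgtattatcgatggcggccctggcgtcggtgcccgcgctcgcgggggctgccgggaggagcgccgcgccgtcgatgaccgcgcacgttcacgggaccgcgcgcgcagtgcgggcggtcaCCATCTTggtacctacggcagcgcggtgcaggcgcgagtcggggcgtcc
Dnajb6: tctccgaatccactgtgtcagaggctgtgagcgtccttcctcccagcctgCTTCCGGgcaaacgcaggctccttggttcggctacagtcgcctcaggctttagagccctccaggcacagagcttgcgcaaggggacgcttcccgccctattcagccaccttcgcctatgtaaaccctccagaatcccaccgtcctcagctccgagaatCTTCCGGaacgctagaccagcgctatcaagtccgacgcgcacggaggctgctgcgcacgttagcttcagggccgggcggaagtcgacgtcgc
Lmbr1: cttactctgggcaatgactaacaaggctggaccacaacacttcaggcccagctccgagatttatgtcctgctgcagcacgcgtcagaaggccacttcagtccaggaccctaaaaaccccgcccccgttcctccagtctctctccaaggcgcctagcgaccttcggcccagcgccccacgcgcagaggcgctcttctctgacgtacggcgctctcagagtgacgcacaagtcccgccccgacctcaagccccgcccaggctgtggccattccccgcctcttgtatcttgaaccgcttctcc
The Ube3c window held 53 CpG and had 74.0% G or C. The Dnajb6 window held 26 CpG and had 62.0%, and the Lmbr1 window held 21 CpG and had 62.0%, against medians of 7 CpG and 52.7% over 32851 mouse promoter windows of the same length. Both strands were searched for 3 motifs. The YY1 letters matched once in Ube3c, at bases 252 to 258 counted from 1 at the left end, and are present in 6.34% of all windows. The ETS letters matched in Dnajb6 at bases 51 to 57 and 209 to 215, and are present in 8.86% of all windows. The letters GGNGGCAG, the core of the CTCF motif, are present in 12.6% of all windows and matched none of the 3. The matches shown do not overlap, and a match shows letters, not binding.

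The values are the authors' Knight-Ruiz balanced contacts, in which each bin is scaled to the same total. Each was divided by the mean of all kept bin pairs at the same distance in the same map, so that 1 is the average for that distance and a rise in one place lowers the values elsewhere. Whole contacts could be read back from the balanced values in every map and give the counting error. The mutant maps held 1121373 contacts (2xBorCTCF) to 2942790 contacts (intraTAD2), against 1646616 contacts in wild type. The labels name both mm9 and mm10. The annotation was moved along the map in 201 steps of up to 500 kb. The mean log2 contact of Shh with Mnx1, En2 and Lmbr1 was highest at 0 kb. It was 1.82 there, against at most 0.842 beyond 50 kb, both on the log2 scale, and mm10 was used. Domain borders were placed where insulation, defined further on, was lowest as a mean of the 6 maps. Only Lmbr1 and the gap between Rbm33 and Shh were searched, each with 1 bin on either side. The border on this side fell at 29375001, beside the start of Lmbr1, and that between Rbm33 and Shh fell at 28445001. The stretch of 930 kb between them is called the Shh domain below.

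Ube3c made fewer contacts with the Shh domain than the average for the distance and more with genes on both sides of it. Its contact with the domain was 0.700 for intraTAD2, 0.717 for intraTAD3, 0.681 for i4CTCF, 0.701 for 2xBorCTCF and 0.705 for 1xBorCTCF, against 0.735 for wild type. All 6 values lay well under 1. Its contact with the whole En2 side, beyond the other border, was 1.09 to 1.17 in the mutant maps, against 1.19 for wild type. The contact profile of Ube3c therefore dipped over the domain and was higher again past it, as the plot of contacts by 50 kb tile shows. Tiles inside the domain reached down to 0.522 as a mean of the 6 maps (28980001 to 29030000).

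**Figure D1:**
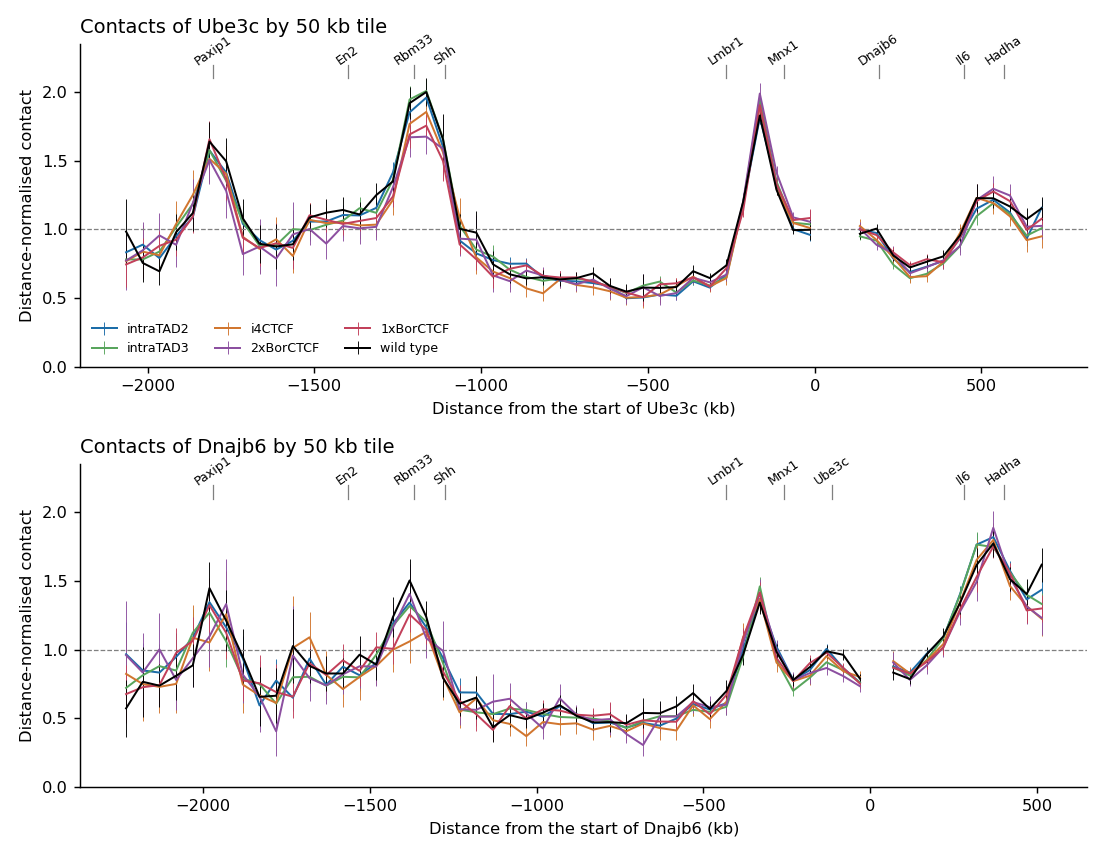
Distance-normalised contact of the Ube3c viewpoint (upper panel) and the Dnajb6 viewpoint (lower panel) with 50 kb tiles, against distance from the gene start in kb, 1 line per map (5 mutant maps and wild type), with 95% counting intervals as bars and ticks at other genes. In each of the 6 maps both genes dip below 0.8 through most of the stretch between Shh and Lmbr1, and peaks stand at Paxip1, Rbm33 and just before Mnx1; the peak near Hadha is taller for Dnajb6 (1.75 to 1.89) than for Ube3c (1.19 to 1.30).

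The single bins with the highest distance-normalised contact of Ube3c fell into 2 places. Of 398 bins with at least 20 contacts in each map, the first 3 lay just outside the Shh domain between Lmbr1 and Nom1, in a stretch with no protein-coding gene. Bin 29390001 to 29395000 had contacts of 2.07 for intraTAD2, 2.25 for intraTAD3, 2.25 for i4CTCF, 2.24 for 2xBorCTCF and 2.09 for 1xBorCTCF, against 2.16 for wild type (630 to 1558 contacts per map). Bins 29385001 to 29390000 and 29400001 to 29405000 had means of 2.16 and 2.06 over the 6 maps. The fourth and the fifth were bins of Rbm33 on the other side of the domain, 28405001 to 28410000 (mean 2.05) and 28390001 to 28395000 (mean 2.03).

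Rbm33, which encodes an RNA-binding protein, was the partner gene with the highest contact of Ube3c, although 1150 kb separate the genes and the whole Shh domain lies between them. Its contact was 1.88 for intraTAD2, 1.91 for intraTAD3, 1.74 for i4CTCF, 1.61 for 2xBorCTCF and 1.67 for 1xBorCTCF, against 1.89 for wild type, from 1626 to 5146 contacts. The intraTAD maps and wild type were high, and i4CTCF and both BorCTCF maps were low. Paxip1, whose product takes part in DNA damage signalling and histone methylation, followed with 1.54 to 1.62 in the mutant maps and 1.69 for wild type. Nom1, a gene of ribosome assembly that sits next to Mnx1, had 1.5 to 1.60 in the mutant maps and 1.49 for wild type. Shh itself had 1.43 for intraTAD2, 1.54 for intraTAD3, 1.49 for i4CTCF, 1.55 for 2xBorCTCF and 1.42 for 1xBorCTCF, against 1.56 for wild type, from 306 to 828 contacts. The Shh window lies next to the domain border, and the intervals of all 6 values overlap.

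Other listed genes were met near or below the average, with Rnf32 and Lmbr1 the lowest. Rnf32, a ring finger gene beside Lmbr1, had 0.612 to 0.651 in the mutant maps and 0.687 for wild type. Lmbr1 had 0.827 to 0.846 in the mutant maps and 0.886 for wild type. Mnx1, a motor neuron and pancreas homeobox gene that is much nearer to Ube3c than Rbm33 is, had 0.982 to 1.13 in the mutant maps and 0.933 for wild type. On the En2 side, the mean over the 6 maps was 1.04 for the homeobox gene En2, 1.07 for its neighbour Cnpy1, 1.13 for the sterol regulator Insig1 and 0.981 for the serotonin receptor gene Htr5a. High contact across the domain was thus seen with Rbm33 and Paxip1 and not with every gene there.

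**Figure D2:**
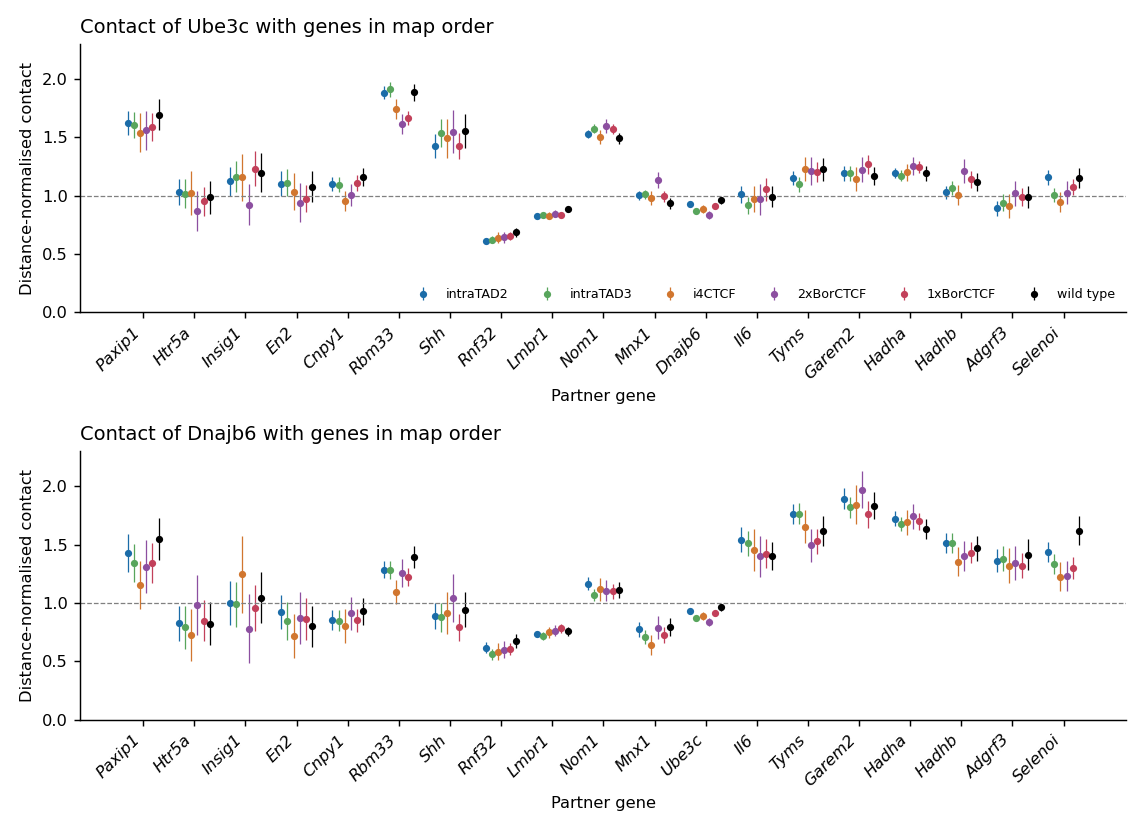
Distance-normalised contact of Ube3c (upper panel) and Dnajb6 (lower panel) with partner gene windows in map order, 1 point per map in the order of the legend with wild type last, bars being 95% counting intervals and the dashed line the average for the distance. Ube3c is highest with Rbm33 (1.61 to 1.91) and Dnajb6 with Garem2 (1.76 to 1.97).

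Along Ube3c itself the distance-normalised contact changed from bin to bin. With the stretch from the Lmbr1 border to Nom1 it was highest at the gene's end. The mean over the 6 maps was 2.15 in the last bin (29680001) against 1.39 in the first bin (29560001). Contact with Rbm33 was instead highest at 2.00 in bin 29590001, was still 1.91 in bin 29635001, and was lowest in the last bin at 1.47. It was also lower in the first bin (1.66) and in the bin that holds the gene start (1.61). The Shh domain was at 0.637 to 0.789 in each of the 25 bins. Low contact with the domain was therefore spread over the gene's whole length and not set by a few bins.

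**Figure D3:**
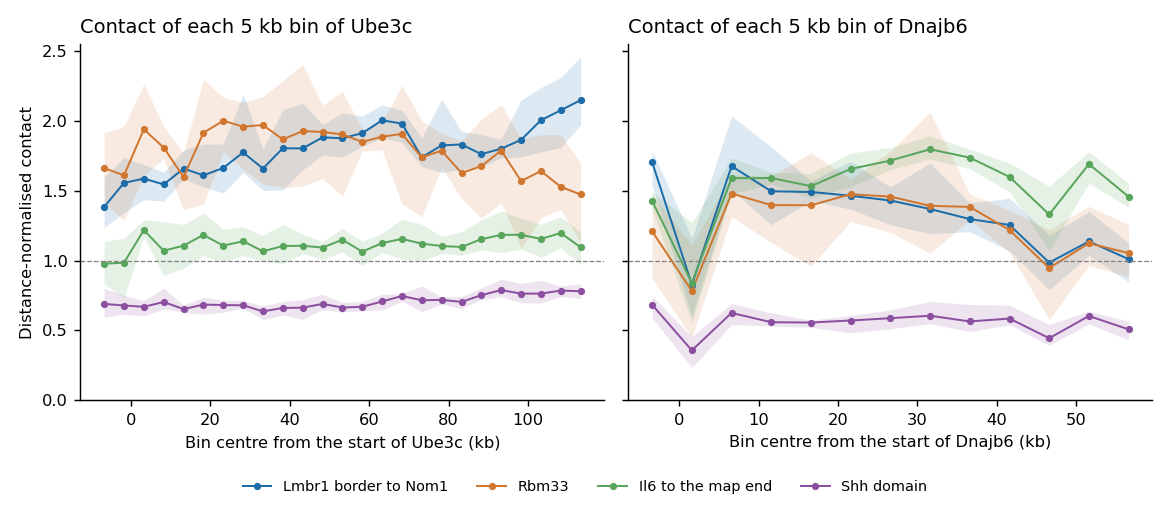
Mean distance-normalised contact over the 6 maps of each 5 kb bin of Ube3c (left panel) and Dnajb6 (right panel) with 4 stretches, against the distance of the bin centre from the gene start in kb, with shading from the lowest to the highest map. Contact of Ube3c with the stretch from the Lmbr1 border to Nom1 is highest at the gene's end (2.15), and the bin at the start of Dnajb6 is the lowest of its viewpoint with each stretch (0.358 with the Shh domain).

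Dnajb6, farther from Shh, met the Shh domain less than Ube3c did and met the far gene cluster more. Its contact with the domain was 0.568 for intraTAD2, 0.556 for intraTAD3, 0.514 for i4CTCF, 0.571 for 2xBorCTCF and 0.563 for 1xBorCTCF, against 0.577 for wild type. Its contact with everything beyond its own far end was 1.2 to 1.33 in the mutant maps and 1.31 for wild type. Of its contacts, 44.9% to 47.6% fell beyond the gene in the mutant maps, against 44.7% in wild type, while 12.5% to 13.9% fell in the Shh domain in the mutant maps, against 13.8% in wild type. The stretch beyond the gene thus held more of its contacts than any other of the 4 stretches in each map, though less than all 3 others together.

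Of 233 bins with at least 20 contacts in each map, the 5 with the highest distance-normalised contact of Dnajb6 all lay in the cluster of Tyms, Garem2 and Hadha. Bin 30110001 to 30115000, in Garem2, had contacts of 2.00 for intraTAD2, 1.97 for intraTAD3, 2.18 for i4CTCF, 2.11 for 2xBorCTCF and 2.02 for 1xBorCTCF, against 2.06 for wild type (95 to 292 contacts). Bin 30055001 to 30060000 in Tyms had a mean of 1.95 but ranged from 1.54 to 2.29 on 34 to 140 contacts. The others were 30105001 (1.92), 30070001 (1.88) and 30125001 (1.87).

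Garem2, an adaptor gene of growth factor signalling, was the gene with the highest contact of Dnajb6. It had 1.89 for intraTAD2, 1.82 for intraTAD3, 1.84 for i4CTCF, 1.97 for 2xBorCTCF and 1.76 for 1xBorCTCF, against 1.83 for wild type. The neighbouring 3110082J24Rik had 1.78 to 1.92 in the mutant maps and 1.85 for wild type. Hadha, a gene of mitochondrial fatty acid oxidation, had 1.68 to 1.74 in the mutant maps and 1.63 for wild type. These 3 windows share bins and are not independent. Tyms, the thymidylate synthase gene, had 1.49 to 1.77 in the mutant maps and 1.62 for wild type, and the cytokine gene Il6, the next gene after Dnajb6, had 1.40 to 1.54 in the mutant maps and 1.40 for wild type. The intervals of mutant and wild-type values overlapped for each of these genes.

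Toward Shh, Dnajb6 met Rbm33 at 1.28 for intraTAD2, 1.28 for intraTAD3, 1.09 for i4CTCF, 1.26 for 2xBorCTCF and 1.22 for 1xBorCTCF, against 1.40 for wild type. Paxip1 had 1.15 to 1.43 in the mutant maps and 1.55 for wild type, and Nom1 had 1.07 to 1.16 in the mutant maps and 1.11 for wild type. The contact with Shh was 0.790 to 1.04 in the mutant maps and 0.941 for wild type, from only 110 to 280 contacts. Lmbr1 (0.716 to 0.781 in the mutant maps, 0.757 for wild type), Mnx1 (0.637 to 0.788 and 0.790) and Rnf32 (0.559 to 0.614 and 0.676) were below the average in every map. As a mean of the 6 maps, Paxip1, Rbm33 and Nom1 were thus its highest listed partners on this side. They were so for Ube3c too, at higher values. In i4CTCF alone, Insig1 exceeded them at Dnajb6, at 1.245 (0.914 to 1.575) on 75 contacts.

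Set side by side within each map, the genes split the partners by direction. Contact of Ube3c exceeded that of Dnajb6, with an interval excluding 0, in 6 of 6 maps for Rbm33, Shh, Lmbr1, Nom1 and Mnx1. For Rbm33 the log2 ratio of Ube3c over Dnajb6 was 0.55 for intraTAD2, 0.57 for intraTAD3, 0.67 for i4CTCF, 0.36 for 2xBorCTCF and 0.45 for 1xBorCTCF, against 0.43 for wild type. For Shh it was 0.57 to 0.85 in the mutant maps and 0.73 for wild type. Dnajb6 exceeded Ube3c in 6 of 6 maps for Il6, Tyms, 3110082J24Rik, Garem2, Hadha, Hadhb, Adgrf3 and Selenoi, and for Garem2 the log2 ratio was -0.69 to -0.47 in the mutant maps and -0.65 for wild type. For Paxip1, En2, Cnpy1, Htr5a, Insig1 and Rnf32 the interval excluded 0 in 1 to 4 maps, with Ube3c the higher.

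A contrast by direction also showed in the balance of each gene's contacts within 500 kb. This is the log2 ratio of mean contact on the side facing Shh over that on the far side, at the same distances. Shh lies 1102.1 kb from Ube3c, so the 500 kb hold neither Shh nor the En2 side. For Ube3c it was 0.08 for intraTAD2, 0.20 for intraTAD3, 0.11 for i4CTCF, 0.15 for 2xBorCTCF and 0.08 for 1xBorCTCF, against 0.07 for wild type. For Dnajb6 it was -0.53 for intraTAD2, -0.56 for intraTAD3, -0.49 for i4CTCF, -0.47 for 2xBorCTCF and -0.43 for 1xBorCTCF, against -0.48 for wild type. Within that reach, Ube3c leaned slightly to the side facing Shh and Dnajb6 to the far side in each map. Nom1 (-1.23 to -1.12 in the mutant maps, -1.07 for wild type) and Mnx1 (-0.78 to -0.65 and -0.59), which lie nearer to the border, leaned to the far side more strongly.

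In shape, the profile of Ube3c over 54 tiles, on the mean of the 6 maps, was most like those of Mnx1 (Spearman's rho 0.897) and Nom1 (0.893), then Dnajb6 (0.830, 53 tiles). The profile of Dnajb6 was most like those of Hadhb (0.831, 55 tiles), Ube3c (0.830, 53 tiles) and Hadha (0.816, 55 tiles). These are descriptions over tiles that share libraries, depth and domain layout.

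Contact between Ube3c and Dnajb6, whose genes are 59.8 kb apart, stood below the average for their distance and was lowest in 2xBorCTCF. It was 0.932 for intraTAD2, 0.869 for intraTAD3, 0.887 for i4CTCF, 0.835 for 2xBorCTCF and 0.914 for 1xBorCTCF, against 0.962 for wild type, from 3418 to 10344 contacts. Against wild type the log2 ratio was -0.15 (-0.20 to -0.089) for intraTAD3, -0.12 (-0.19 to -0.047) for i4CTCF, -0.20 (-0.28 to -0.13) for 2xBorCTCF and -0.073 (-0.13 to -0.014) for 1xBorCTCF. In intraTAD2 it was -0.046, with an interval of -0.10 to 0.0095 that includes 0. Wild type was the highest of the 6 maps, so one map sets the sign of every ratio. With the recovered contacts taken without balancing, the ratio was 0.012 for i4CTCF and 0.082 for 1xBorCTCF, so for these 2 maps the direction depends on the balancing. Which map was lowest depended on the scaling too. Without balancing it was intraTAD3 (-0.100, against -0.095 for 2xBorCTCF). With values divided by the map total it was i4CTCF (-0.29, against -0.27 for 2xBorCTCF).

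Compared with wild type, Ube3c's contacts with the 12 listed partner genes moved little, and the intervals of most ratios included 0. In intraTAD2, 1 partner was higher and 2 lower (6.8% and 10.8% of all 250 gene pairs of the map), in intraTAD3 2 and 3 (6.4% and 13.6%), and in i4CTCF 0 and 4 (4.0% and 12%). In 2xBorCTCF 2 were higher and 4 lower (9.2% and 12.8%), and in 1xBorCTCF 1 and 3 (7.2% and 10.0%). The partners that were lower were a larger share of the 12 than over all pairs in each map. The ratios share 1 viewpoint, and the Ube3c window is wider than most gene windows and so has narrower intervals.

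Lmbr1 was lower in 4 mutant maps, with log2 ratios of -0.097 for intraTAD2, -0.085 for intraTAD3, -0.099 for i4CTCF and -0.085 for 1xBorCTCF. Mnx1 was higher in intraTAD2 (0.10), intraTAD3 (0.12) and 2xBorCTCF (0.28, 0.17 to 0.39), and Nom1 was higher in intraTAD3 (0.078), 2xBorCTCF (0.10) and 1xBorCTCF (0.076). In 2xBorCTCF the interval for Lmbr1 included 0, as did those for Mnx1 and Nom1 in i4CTCF. Without balancing the sign turned for Nom1 for intraTAD3 (-0.023) and for Lmbr1 for 1xBorCTCF (0.022).

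Across the domain, Rbm33 was lower in i4CTCF (-0.11, -0.20 to -0.025), 2xBorCTCF (-0.23, -0.32 to -0.13) and 1xBorCTCF (-0.18, -0.25 to -0.10). In intraTAD2 and intraTAD3 its ratios were -0.0016 and 0.019, with intervals that include 0. The same 3 maps were also lower when set against intraTAD2, the name they share, at -0.11 (-0.19 to -0.030) for i4CTCF, -0.22 (-0.31 to -0.14) for 2xBorCTCF and -0.18 (-0.24 to -0.11) for 1xBorCTCF. The intraTAD2 map itself thus stood with intraTAD3 and wild type for this pair. Contact with the whole En2 side was also lower in 2xBorCTCF than in wild type for Mnx1 (1.27 against 1.61) and Nom1 (1.17 against 1.31). These genes have the profiles most like that of Ube3c. Their values were 1.64 and 1.325 in i4CTCF, and 1.52 and 1.28 in 1xBorCTCF. For both BorCTCF genotypes the allele and the way the embryos were made cannot be told apart. Cnpy1 was lower in i4CTCF (-0.28) and 2xBorCTCF (-0.20), Insig1 for 2xBorCTCF (-0.37) and Rnf32 for intraTAD2 (-0.17) and intraTAD3 (-0.14).

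**Figure D4:**
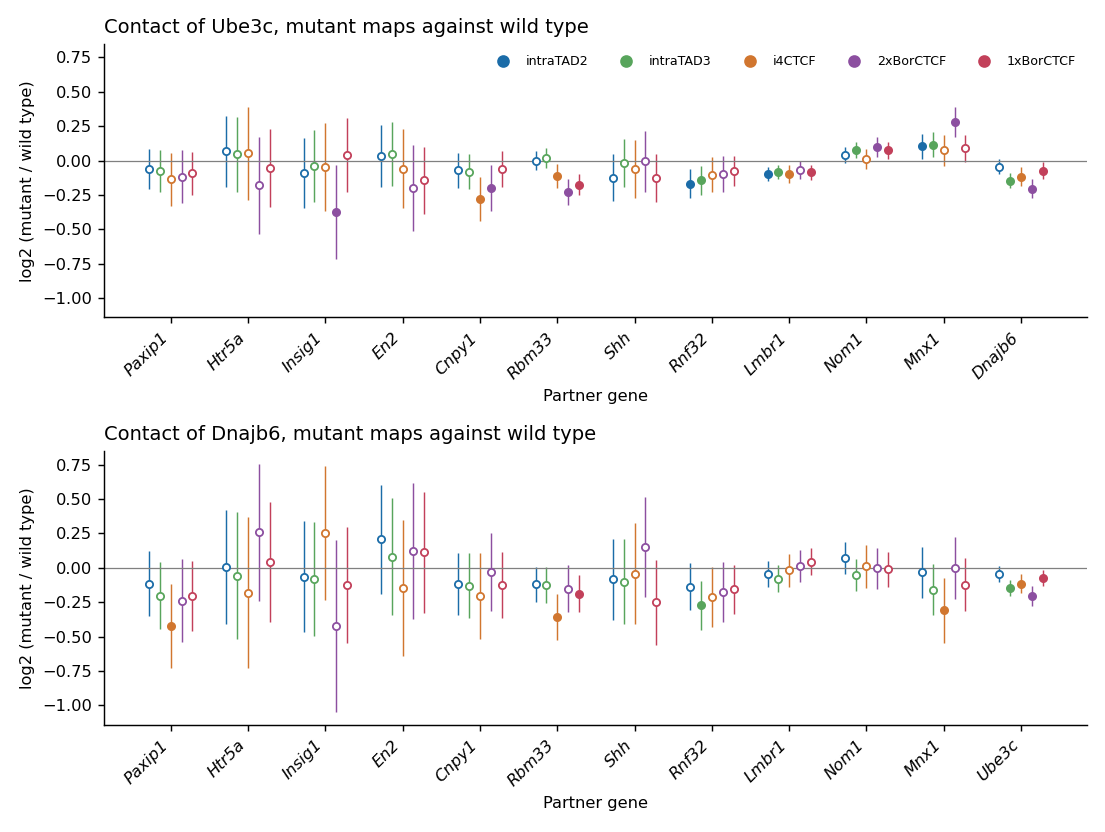
Log2 ratio of the contact of Ube3c (upper panel) and Dnajb6 (lower panel) with each listed partner gene in the 5 mutant maps over wild type, with 95% counting intervals as bars; filled points have intervals that exclude 0. The ratios of Rbm33 with Ube3c are below 0 for i4CTCF, 2xBorCTCF and 1xBorCTCF (-0.23 to -0.11) and near 0 for intraTAD2 and intraTAD3.

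By stretch, Ube3c met the region from the Lmbr1 border up to the gene at 1.36 for intraTAD2, 1.43 for intraTAD3, 1.40 for i4CTCF, 1.47 for 2xBorCTCF and 1.41 for 1xBorCTCF, against 1.34 for wild type. The log2 ratio was 0.13 (0.091 to 0.17) for 2xBorCTCF, with intervals above 0 also in intraTAD3 (0.084), i4CTCF (0.054) and 1xBorCTCF (0.064). The Shh domain was lower in intraTAD2 (-0.069), i4CTCF (-0.11), 2xBorCTCF (-0.068) and 1xBorCTCF (-0.060). The stretch beyond Ube3c was lower in intraTAD2 (-0.054), intraTAD3 (-0.12) and i4CTCF (-0.090). Without balancing the sign turned for the domain in 1xBorCTCF (0.017) and for the stretch beyond the gene in intraTAD2 (0.016) and i4CTCF (0.060). With map totals it turned for the stretch beyond the gene in intraTAD2 (0.023) and for the stretch up to the gene in i4CTCF (-0.098).

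Dnajb6's contacts with most listed partners had ratios to wild type whose intervals included 0. None of 12 was higher in any mutant map, and 0 were lower in intraTAD2, 2 for intraTAD3, 4 for i4CTCF, 1 for 2xBorCTCF and 2 for 1xBorCTCF, against the shares of all gene pairs given above. These 9 calls became 18 without balancing, 17 with the gene bins alone and 14 without poorly covered bins. In i4CTCF, Paxip1 was lower by a log2 ratio of -0.42 (-0.73 to -0.12), Rbm33 by -0.36 (-0.52 to -0.19) and Mnx1 by -0.31 (-0.55 to -0.073), and the fourth was Ube3c. Rbm33 was also lower in 1xBorCTCF (-0.19, -0.32 to -0.056), and Rnf32 for intraTAD3 (-0.27, -0.45 to -0.099). The Shh domain as a whole was lower in i4CTCF (-0.17, -0.25 to -0.086), and in the other mutant maps its intervals included 0. The stretch from the Lmbr1 border up to Dnajb6 was lower in intraTAD3 (-0.072) and 2xBorCTCF (-0.063), and the stretch beyond it in i4CTCF (-0.050), 2xBorCTCF (-0.072) and 1xBorCTCF (-0.068). Without balancing, the sign turned for the stretch up to the gene in 2xBorCTCF (0.010) and for all 3 of the stretch beyond it (0.071, 0.018 and 0.062). Among genes off the list, Selenoi, a phospholipid synthesis gene at the end of the map, was picked after its values were seen. Its contact was 1.44 for intraTAD2, 1.33 for intraTAD3, 1.22 for i4CTCF, 1.23 for 2xBorCTCF and 1.30 for 1xBorCTCF, against 1.62 for wild type, with log2 ratios of -0.17 to -0.40 whose intervals exclude 0. The map ends within Selenoi, so only part of the gene was measured.

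Between mutant maps, the share of all 251 gene pairs that were higher and lower was 2.39% and 8.37% for intraTAD3 against intraTAD2, 6.77% and 15.1% for i4CTCF, 10.4% and 11.6% for 2xBorCTCF, and 10.8% and 6.77% for 1xBorCTCF, each against intraTAD2. It was 5.18% and 7.17% for 2xBorCTCF against 1xBorCTCF. At Ube3c, 2xBorCTCF differed from 1xBorCTCF in 3 of 12 partners, Mnx1 being higher (0.19, 0.085 to 0.30) and Dnajb6 (-0.13) and Insig1 (-0.41) lower. At Dnajb6, Shh was higher in 2xBorCTCF than in 1xBorCTCF (0.40, 0.050 to 0.75) on 110 and 213 contacts. Against intraTAD2, i4CTCF was lower at Dnajb6 for 4 partners of 12, which were Paxip1, Rbm33, Mnx1 and Ube3c. In intraTAD3 against intraTAD2, Nom1 (-0.13, -0.23 to -0.024) and Ube3c (-0.10) were lower at Dnajb6, and Dnajb6 was the 1 partner of 12 that was lower at Ube3c.

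Few 50 kb tiles differed from wild type by 25% or more of the smaller value with an interval excluding 0. At Ube3c none of 54 tiles did in intraTAD2, intraTAD3 and i4CTCF, where over all windows of that width 0.47%, 0.421% and 1.2% of tiles were higher and 1.3%, 1.19% and 1.96% lower. In 2xBorCTCF 1 tile was higher and 2 lower (4.21% and 3.55% over all windows), and in 1xBorCTCF 1 was higher and 0 lower (2.71% and 1.29%). The rise in both BorCTCF maps was the same tile in Dpp6, 27580001 to 27630000, at 0.955 for 2xBorCTCF and 0.880 for 1xBorCTCF, against 0.694 for wild type. The largest fall at Ube3c was the Htr5a tile in 2xBorCTCF (-0.40). At Dnajb6, i4CTCF had 6 of 55 tiles lower (2.92% over all windows), 2xBorCTCF 4 (4.31%), intraTAD2 and 1xBorCTCF 1 each (2.21% and 2.17%) and intraTAD3 0 (2.4%). In i4CTCF the largest fall was tile 29130001 to 29180000 (-0.51), inside the Shh domain, and in 2xBorCTCF tile 29030001 to 29080000 (-0.82), also inside it. In intraTAD2 and 1xBorCTCF it was tile 27980001 to 28030000 (-0.66 and -0.64). Tiles that rose at Dnajb6 were 1 for intraTAD2 (27480001, 0.76) and 1 for intraTAD3 (27680001, 0.34), against 1.28% and 1.47% over all windows, and 0 in i4CTCF (2.23%), 2xBorCTCF (4.79%) and 1xBorCTCF (4.14%).

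Insulation, the log2 ratio of contact across a bin to contact within the 100 kb on either side, was lowest near Ube3c at its start in each map, and near Dnajb6 at or next to its start in the mutant maps. These dips were shallower than that at the border beside Lmbr1. At the border beside the Lmbr1 start it was -0.58 for intraTAD2, -0.70 for intraTAD3, -0.61 for i4CTCF, -0.75 for 2xBorCTCF and -0.62 for 1xBorCTCF, against -0.57 for wild type. Within 50 kb of the Ube3c viewpoint the lowest bin was the one beginning at 29570001, 0.759 kb past the gene start, in all 6 maps, at -0.23 for intraTAD2, -0.23 for intraTAD3, -0.19 for i4CTCF, -0.21 for 2xBorCTCF and -0.17 for 1xBorCTCF, against -0.22 for wild type. The position was thus shared to the bin. In the bin that holds the gene start, insulation was -0.19 for intraTAD2, -0.17 for intraTAD3 and -0.16 for wild type. It was shallower there in i4CTCF (-0.0925), 2xBorCTCF (-0.11) and 1xBorCTCF (-0.11). The interval of the difference from wild type excluded 0 only in i4CTCF (0.068, 0.0070 to 0.13).

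Near Dnajb6 the maps did not share the position. The lowest bin was that of the gene start, beginning at 29735001, in intraTAD2, intraTAD3, i4CTCF and 2xBorCTCF, and the next one in 1xBorCTCF, whereas in wild type it lay 49.1 kb into the gene at its far end (29785001). At the gene start the insulation was -0.28 for intraTAD2, -0.30 for intraTAD3, -0.27 for i4CTCF, -0.30 for 2xBorCTCF and -0.22 for 1xBorCTCF, against -0.12 for wild type. The difference from wild type was -0.16 (-0.22 to -0.099), -0.18 (-0.24 to -0.12), -0.14 (-0.22 to -0.070), -0.17 (-0.25 to -0.096) and -0.094 (-0.16 to -0.029) in the same order. Intervals below 0 were found at 16.4%, 22.4%, 11.8%, 21.0% and 10.2% of 519 bins of the map in these comparisons, and in all 5 at once at 3.28% (17 bins). Of those 17 bins, 8 formed an unbroken run from 29700001 to 29740000, which ends at the start of Dnajb6. Neighbouring bins share most of their 100 kb windows, so these 8 are not separate observations. All 5 differences use the one wild-type map.

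**Figure D5:**
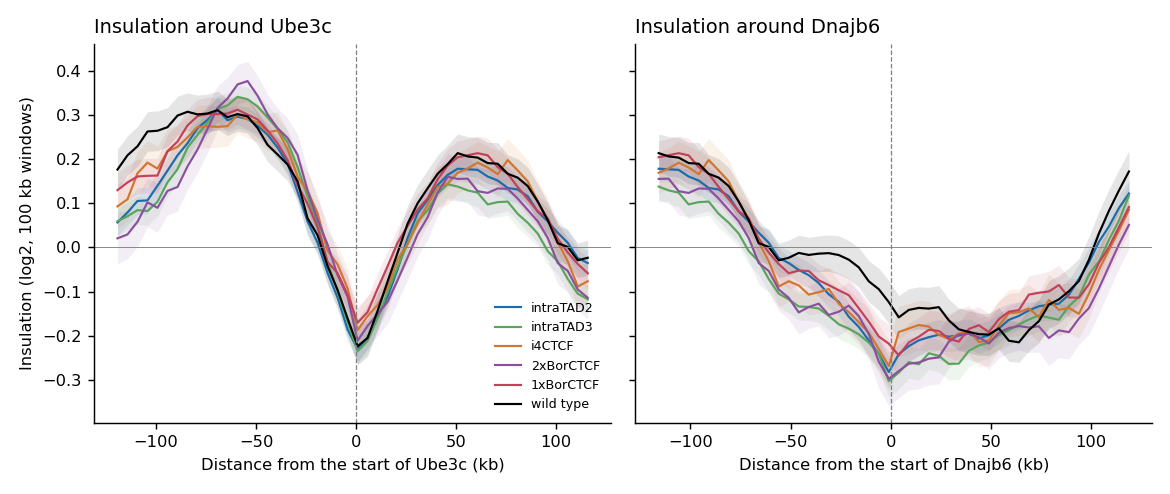
Insulation around the start of Ube3c (left panel) and of Dnajb6 (right panel) against distance from the gene start in kb, 1 line per map with 95% counting intervals shaded; lower values mean less contact across the bin. All 6 maps have their minimum at the start of Ube3c, while before and at the start of Dnajb6 the 5 mutant maps (-0.30 to -0.22 at the start) lie below wild type (-0.12).

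The bin that holds the start of Dnajb6 was poorly covered. It had 1511 recovered contacts in intraTAD2, 1586 for intraTAD3, 560 for i4CTCF, 566 for 2xBorCTCF and 897 for 1xBorCTCF, against 2211 for wild type. These are 13.6% to 17.0% of the median bin in the mutant maps and 41.1% in wild type. Its mean contact with each of the 4 stretches of the plot by bin was the lowest of the 13 Dnajb6 bins. With Rbm33, for example, it was 0.783 as a mean of the 6 maps, where the next bin had 1.48. Contact of the start bin with itself was high, at 6.72 to 9.07 in the mutant maps and 4.48 in wild type. The start bin of Ube3c had 0.510 to 1.75 and 1.90. Balancing scales each bin to the same total, and the part of this self-contact in the low values was not tested. Over all 38 viewpoint bins, the contacts per bin of any pair of mutant maps correlated at r = 0.968 to 0.993 on a log scale, and those of a mutant map with wild type at 0.820 to 0.883, a description of coverage. The mutant maps thus resemble each other in coverage more than they resemble wild type, and its part in the differences above was not tested. With that bin left out, among 31 bins that met fewer than 50% of the partners of a median bin, the insulation at the start of Dnajb6 was -0.28 for intraTAD2, -0.31 for intraTAD3, -0.25 for i4CTCF, -0.30 for 2xBorCTCF and -0.25 for 1xBorCTCF, against -0.15 for wild type. The start of Ube3c was better covered, at 44.9% to 56.0% of the median bin in the mutant maps and 56.5% in wild type.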

How the data were processed

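Capture Hi-C libraries of E10.5 limb buds were cut with DpnII and hybridised to custom probes, per the labels' protocols. The builds mm9 and mm10 and the aligner Bowtie2 2.2.6 are listed in the submitters' processing notes. How duplicates were removed, which tool built the maps and where the probes lie is not given in the sources used here. The deposited signal values are the authors' Knight-Ruiz balanced contacts between 5 kb bins, from reads with mapping quality of at least 30 per the file names. There was 1 library per genotype, and 1 column of values (wild type) has no sample of its own. Replicates were therefore absent, and the p-values and pairing that would need them were not computed.

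From these values whole contacts were recovered as balanced value divided by 2 bin factors, and those recovered were whole within 0.01 in each map (100.0%). In intraTAD3, 6 bin pairs were not recovered. Listed bin pairs without a value numbered 61 in intraTAD3, 9 in 2xBorCTCF, 106 in 1xBorCTCF and 36 in wild type, and 0 of them joined bins that were kept. A bin was left out where any map gave it fewer than 25% of the partners of a median bin (10 bins, none in the viewpoints). Contact was divided by the mean of kept pairs at the same distance. Counting intervals are weighted Poisson intervals and cover counting error only. Tiles were called where they differed by 25% or more of the smaller value, with an interval without 0 and at least 20 contacts in either map. Recovery and intervals were tested on simulated data. Python 3.11.15, numpy 2.4.6, pandas 2.3.3, scipy 1.17.1 and matplotlib 3.10.9 were used.

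Named partners were 11 neighbouring genes and the other member, plus the 3 further genes with the highest mean contact; named bins were the 5 highest, and named tiles the largest rise and fall per map. The members and lists were chosen with earlier results of these data known. Gene positions came from RefSeq (GRCm38.p6).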

Additional observations from a re-analysis of the deposited data

How the results depend on the processing

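Apart from the direct contact of Ube3c with Dnajb6 against wild type and the summary counts and means, which are given below, 1602 values were recomputed. Of these, 1255 moved by less than their counting interval, 331 moved further and 16 were differences with an interval excluding 0 whose sign turned. Sign changes of differences whose interval included 0 are not among the 16. No paired analysis was possible because each genotype has 1 library and the labels' numbers name libraries of different genotypes. In no case is a replicate available to leave out. Shares, balance and insulation are values of single maps and have no value against the median of the other 5 maps. The cause of each change below was not tested.

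Contact of Ube3c with Dnajb6 against wild type was 0.017 for intraTAD2, -0.29 for i4CTCF and -0.15 for 1xBorCTCF with values divided by the map total. Without balancing it was 0.012 for i4CTCF, -0.095 for 2xBorCTCF and 0.082 for 1xBorCTCF (0.049 for i4CTCF against intraTAD2). Against the median of the other 5 maps it was 0.071 for intraTAD2, -0.072 for intraTAD3, -0.043 for i4CTCF, -0.13 for 2xBorCTCF and 0.043 for 1xBorCTCF.

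Further signs turned for Ube3c against the median of the other 5 maps with Lmbr1 for intraTAD3 (0.00073), the Shh domain in 1xBorCTCF (0.0071) and the stretch up to the gene in i4CTCF (-0.011, and -0.098 with map totals). Without balancing they turned with Lmbr1 for 1xBorCTCF (0.022), Nom1 for intraTAD3 (-0.023), 3110082J24Rik in 2xBorCTCF (-0.082), the Shh domain in 1xBorCTCF (0.017) and the stretch beyond the gene in intraTAD2 (0.016, and 0.023 with map totals) and i4CTCF (0.060). For Dnajb6 without balancing they turned with the stretch up to the gene in 2xBorCTCF (0.010) and the stretch beyond it in i4CTCF (0.071), 2xBorCTCF (0.018) and 1xBorCTCF (0.062).

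Tiles called over the 5 comparisons with wild type numbered 4 at Ube3c, with 53 by map totals, 1 against the median of the other 5 maps and 0 at 1.5-fold. At Dnajb6 they numbered 14, with 60 by map totals and 4 at 1.5-fold. Of 60 partner gene ratios, 22 were called at Ube3c (43 by map totals, 13 against the median) and 9 at Dnajb6 (18 without balancing, 34 by map totals, 17 with gene bins alone, 14 without poorly covered bins). Of 20 stretch ratios at Dnajb6, 6 were called (19 by map totals, 3 without poorly covered bins, 10 against the median).

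The share of contacts in the Shh domain, as a mean over the maps, was 21.3% for Ube3c (22.5% without balancing, 20.8% with gene bins alone, 24.3% from 50 kb) and 13.2% for Dnajb6 (14.7%, 12.8% and 15.2%). The balance of contacts was 0.12 for Ube3c (0.35 without balancing, 0.26 by map totals) and -0.49 for Dnajb6 (-0.27 and -0.37). Mean insulation was -0.14 at the start of Ube3c (-0.12 with smoothed distances, -1.97 by map totals, -0.19 with 50 kb windows) and -0.25 at the start of Dnajb6 (-2.23 by map totals, -0.41 with 50 kb windows). Depth limits Dnajb6 most, since its window is smaller and its contact with Shh rests on 110 contacts in the shallowest map.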
